A study of Mus musculus with 40 samples.

Results

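The change from 1 to 3 hr of lipopolysaccharide (LPS) treatment was followed in bone marrow-derived macrophages (BMDMs) of Cpeb4-/- mice, labelled CPEB4-KO and called KO here. BMDMs are macrophages grown in culture from bone marrow, here with L-cell conditioned medium as the source of the growth factor M-CSF, and LPS is the endotoxin that coats Gram-negative bacteria. The series holds 40 libraries of 4 WT and 4 KO male mice of mixed C57BL/6J and 129 background, whose cells were left untreated (0 hr) or given 10 ng/ml LPS for 1, 3, 6 or 9 hr. The 8 KO libraries at 1 and 3 hr come from mice 3, 62, 2 and 55, and the 8 WT libraries at these times, used for comparison, come from mice 25, 88, 69 and 87. Every mouse gave a library at each time, so the change was taken within each mouse. Batch 1 of the labels holds KO mice 3 and 62 and WT mice 25 and 88, and batch 2 holds KO mice 2 and 55 and WT mice 69 and 87. No cage holds both genotypes, so cage and genotype cannot be told apart. The gene was deleted in the whole animal, so the bone marrow cells lacked it throughout their growth as well as during the treatment.

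In a macrophage, LPS is sensed by TLR4, which signals through MyD88 and TRIF to NF-kB, MAP kinases and IRF3. The mRNAs of immediate early transcription factors and of several chemokines peak early and are short-lived, many of them because AU-rich elements (AREs) are bound by TTP (gene Zfp36), which recruits deadenylases. Interferon beta made in the early phase then acts on the same cells through its receptor and drives the interferon-stimulated genes. CPEB4 binds cytoplasmic polyadenylation elements (CPEs) in the 3′ ends of mRNAs and favours elongation of their poly(A) tails. The comparison asks which mRNAs moved between these phases when CPEB4 was absent, and which of them moved differently from WT.

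Of 27179 genes in the table, 13118 had a mean level of at least log2 of 5 over the 16 libraries and were tested. Levels are rlog values, a log2 scale corrected for library size that pulls weakly expressed genes towards their mean. A change is the 3 hr level minus the 1 hr level of the same mouse, so that a change of 1 is a 2-fold rise where shrinkage is slight. Depth per library is not in the table, so counting error is unknown. As limma's test with Benjamini-Hochberg adjusted p under 0.05 called them, 3738 genes rose in KO (28.5% of those tested) and 4246 fell (32.4%). A rise of at least 1 was called for 774 genes (5.9%) and a fall of at least 1 for 676 (5.15%), and 184 rose and 78 fell by at least 2. The median change over all genes tested was -0.0247 and the median standard error (SE) 0.0797.

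To show the letters near the starts of genes that moved, stretches before the start site are given from RefSeq, build GRCm38.p6, for members of the groups described next. They read 5′ to 3′ on the strand of the gene. Promoters of 250 bases before to 50 bases after the start were at hand for 9953 of the 13118 genes (75.9%). Both strands were searched for the ISRE core (GAAA, any 2 bases, GAAA), to which IRF and STAT complexes bind, for the kB site (GGGA, any 2 bases, TTCC) of NF-kB, for the CRE TGACGTCA of CREB and for the AP-1 site TGANTCA. None of these motifs contains another. A match is a description of letters and does not show that a factor was bound. The stretches with an ISRE core, of which capitals mark 1 match each, are from the antiviral and GTPase genes Ifit1 (chr19:34640774-34640843, plus strand), Rsad2 (chr12:26456533-26456602, minus strand), Irgm2 (chr11:58214883-58214952, plus strand) and Gbp5 (chr3:142496739-142496808, plus strand).
Ifit1: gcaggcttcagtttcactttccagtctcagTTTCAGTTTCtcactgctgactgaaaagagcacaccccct
Rsad2: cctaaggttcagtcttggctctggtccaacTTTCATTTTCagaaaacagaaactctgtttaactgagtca
Irgm2: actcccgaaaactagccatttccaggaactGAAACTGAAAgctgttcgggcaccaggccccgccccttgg
Gbp5: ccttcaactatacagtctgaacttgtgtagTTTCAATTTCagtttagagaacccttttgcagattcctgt
The Ifit1 stretch holds another match in lower case before the marked one. The ISRE core was in 80 of 568 promoters of genes that rose by at least 1 in KO (14.1%), in 10 of 490 of those that fell by at least 1 (2.04%) and in 390 of all 9953 (3.92%). It was in 11 of 22 promoters of the antiviral genes and in 7 of 8 of the GTPase genes.

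The stretches with a kB site, of which capitals mark 1 match each, are from the chemokine genes Cxcl1 (chr5:90891145-90891214, plus strand), Cxcl2 (chr5:90903773-90903842, plus strand), Cxcl3 (chr5:90785999-90786068, plus strand) and from Il6 (chr5:30013040-30013109, plus strand). They are shown because these mRNAs moved in opposite directions although each stretch holds the motif.
Cxcl1: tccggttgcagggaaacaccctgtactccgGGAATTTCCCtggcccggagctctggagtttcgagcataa
Cxcl2: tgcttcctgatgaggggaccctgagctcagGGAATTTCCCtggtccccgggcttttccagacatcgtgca
Cxcl3: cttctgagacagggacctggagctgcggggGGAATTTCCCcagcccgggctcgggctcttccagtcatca
Il6: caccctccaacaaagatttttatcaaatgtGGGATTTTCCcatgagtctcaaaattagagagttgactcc
In the 3 chemokine stretches the motif also matches on the other strand, starting 1 base before the capitals. Cxcl1 fell by 0.94 and Cxcl2 fell by 1.14 in KO, whereas Cxcl3 rose by 2.08 and Il6 by 2.48. The kB site was in 17 of 568 promoters of genes that rose by at least 1 (2.99%), in 6 of 490 of those that fell (1.22%) and in 176 of all (1.77%). It was in 4 of 10 promoters of the chemokine and TNF list.

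The stretches with a CRE, in capitals, are from Btg2 (chr1:134079284-134079351, minus strand) and Maff (chr15:79347461-79347528, plus strand), both of which fell.
Btg2: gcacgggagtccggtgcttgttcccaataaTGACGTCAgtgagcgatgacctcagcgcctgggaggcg
Maff: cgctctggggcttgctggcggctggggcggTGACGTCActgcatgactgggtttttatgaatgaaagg
The CRE was in 22 of 490 promoters of genes that fell by at least 1 (4.49%), in 14 of 568 of those that rose (2.46%) and in 359 of all (3.61%). The AP-1 site was in 65 of 568 promoters of the risen genes (11.4%), in 38 of 490 of the fallen (7.76%) and in 643 of all (6.46%). Btg2 and Maff were the members with a CRE among 17 immediate early promoters.

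The immediate early transcription factors, which relay the first signal to later genes, gave 5 of the 10 largest falls. Of 22 on the list, 19 fell, 2 rose and 1 did not pass, with a median change of -1.21 (range of the 4 KO mice -1.34 to -1.05), beside 32.4% falling and a median of -0.0247 over all genes tested. Egr1, a zinc finger factor (chr18:34861207-34864956, mm10), had the largest fall of all genes tested. Its level in KO mice 3, 62, 2 and 55 was 11.60, 12.01, 12.002 and 11.76 at 1 hr and 7.33, 7.42, 7.52 and 7.29 at 3 hr. These 3 hr levels lay below the untreated levels of the same mice, 7.72 to 7.95. The change was -4.45 (SE 0.07, limma adjusted p = 5.1e-12).

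Fosb, a partner of JUN in AP-1, went from 6.46 to 7.29 at 1 hr to 2.46 to 2.83 at 3 hr, giving a change of -4.12 (SE 0.20). The 4 libraries at 3 hr were all below the untreated ones (3.60 to 4.20). Egr3 fell by 3.99 (SE 0.18), Nr4a1 by 3.40 (SE 0.12) and Egr2 by 3.14 (SE 0.06). Nr4a1, an orphan nuclear receptor, stood at 10.79 to 11.37 at 1 hr and at 7.42 to 7.74 at 3 hr, beside 7.55 to 7.80 untreated.

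Fos fell by 2.23 (SE 0.08), Btg2 by 2.05 (SE 0.06), Maff by 1.69 (SE 0.07), Myc by 1.64 (SE 0.06) and Jun by 1.36 (SE 0.06). The exceptions were Nr4a3, which rose by 1.58 (SE 0.28), Atf3, which rose by 0.23 (SE 0.07), and Nr4a2, whose change of 0.19 (SE 0.17) did not pass.

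**Figure D1:**
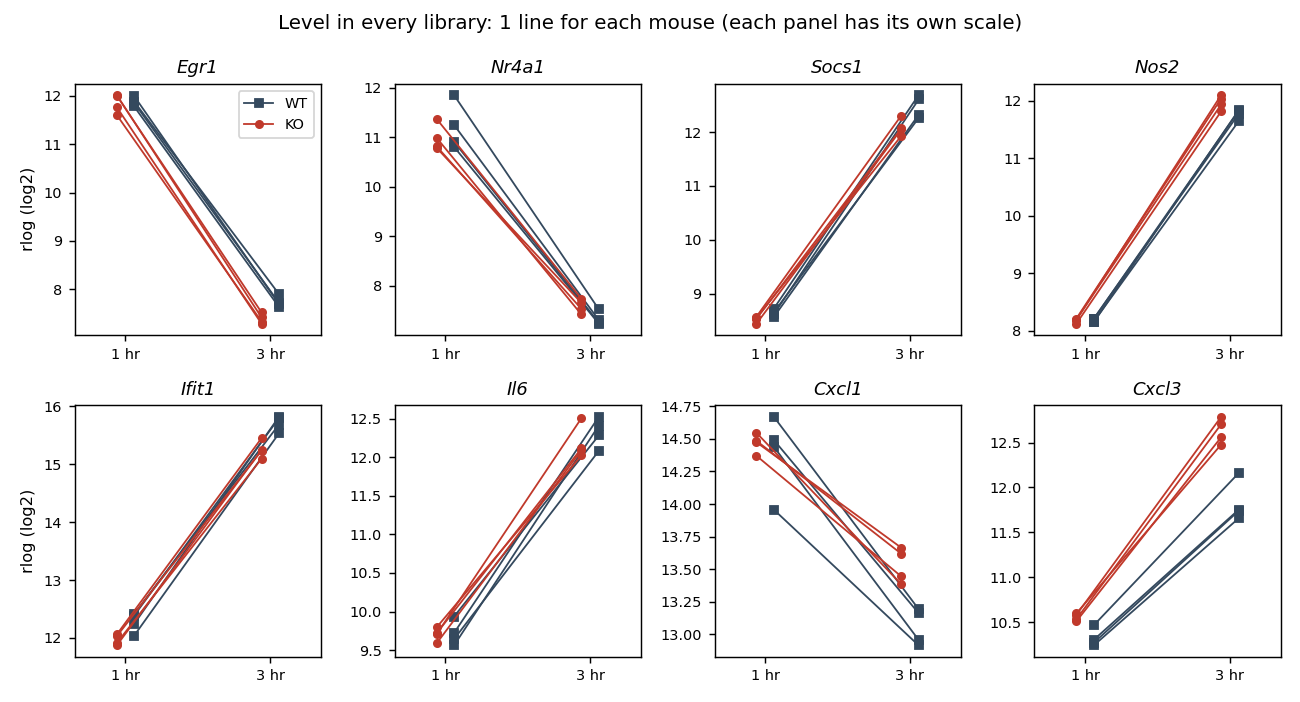
Levels (rlog, log2 scale, y axis) of 8 mRNAs at 1 and 3 hr of LPS (x axis) in each KO mouse (circles) and WT mouse (squares), with lines joining the libraries of a mouse. Egr1, Nr4a1 and Cxcl1 fall and Socs1, Nos2, Ifit1, Il6 and Cxcl3 rise in every mouse.

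Other large falls were in genes of mixed function. Cxcr4, the receptor of CXCL12, was at 11.31 to 11.50 in KO at 1 hr and at 7.38, 7.15, 7.47 and 7.02 in mice 3, 62, 2 and 55 at 3 hr, giving a change of -4.15 (SE 0.08). It was already at 10.97 to 11.13 without LPS. Fam214a was at 8.55 to 8.71 without LPS, and fell by 3.42 (SE 0.09). Dusp8, a phosphatase of JNK and p38, fell by 3.48 (SE 0.08), Gdf15, a stress cytokine, by 3.41 (SE 0.14) and Tmem88, a membrane protein, by 3.23 (SE 0.16).

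The 10 largest rises were B3gnt7, Il19, Edn1, Rnd1, Mx2, Dll1, Mx1, Steap4, Nos2 and Il34, from 4.21 down to 3.61. B3gnt7, a glycosyltransferase, was at 4.51, 4.41, 4.16 and 3.97 in KO mice 3, 62, 2 and 55 at 1 hr and at 8.49, 8.71, 8.48 and 8.23 at 3 hr. Its change of 4.21 (SE 0.12, limma adjusted p = 2.3e-10) was the largest rise. Il19, an IL-10 family cytokine, rose by 3.94 (SE 0.09) and Edn1, the vasoconstrictor endothelin-1, by 3.92 (SE 0.07). Rnd1 rose by 3.89 (SE 0.05) and was already higher at 1 hr (8.82 to 9.07) than untreated (7.27 to 7.33). Dll1, a Notch ligand, rose by 3.84 (SE 0.08), Steap4, a metalloreductase, by 3.83 (SE 0.08) and Il34, a ligand of the M-CSF receptor, by 3.61 (SE 0.16).

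Of 16 chemokines and other mediators of the first hour, 8 rose, 6 fell and 2 did not pass in KO, with a median change of 0.18. Over all genes tested 28.5% rose and 32.4% fell. Tnf fell by 0.96 (SE 0.06), from 16.61 to 16.74 at 1 hr to 15.58 to 15.85 at 3 hr. Cxcl1 and Cxcl2, neutrophil attractants, fell with it, and so did Tnfsf9 (-1.53, SE 0.06), Lif (-1.22, SE 0.20) and Osm (-0.75, SE 0.11). Cxcl3 (2.08, SE 0.06), Ccl4 (1.54, SE 0.12) and Ccl3 (1.12, SE 0.11) rose. The change of Ccl2, a monocyte attractant, was -0.07 (SE 0.08) and did not pass.

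Of 22 later cytokines and secreted mediators, 18 rose and 4 fell, with a median change of 2.13 (1.96 to 2.25 over KO mice). Over all genes tested 28.5% rose and 32.4% fell, so the list held a smaller share of falls. Il6 was at 9.72, 9.59, 9.80 and 9.71 in KO mice 3, 62, 2 and 55 at 1 hr and at 12.11, 12.09, 12.02 and 12.51 at 3 hr, with no overlap. Cxcl11 rose by 3.10 (SE 0.22), Il27 by 2.90 (SE 0.08), Il12a by 2.81 (SE 0.14), Ccl5 by 2.52 (SE 0.07), Il15 by 2.45 (SE 0.05) and Cxcl10 by 2.297 (SE 0.08). RefSeq annotates Cxcl11 as a transcribed pseudogene. The 4 that fell were Csf2 (-1.60, SE 0.12), Csf3 (-0.86, SE 0.16), Ifnb1 (-0.62, SE 0.15) and Il23a (-0.58, SE 0.18). Ifnb1, which encodes interferon beta, stood at 7.34 to 7.92 at 1 hr and at 6.83 to 7.32 at 3 hr.

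The antiviral interferon-stimulated genes rose throughout. Of 32 on the list, 32 rose and 31 rose by at least 1, with a median change of 1.76 (1.69 to 1.81 over KO mice). Over all genes tested 28.5% rose and 5.9% rose by at least 1. Mx2 and Mx1, of a family of dynamin-like antiviral GTPases, rose by 3.86 (SE 0.06) and 3.83 (SE 0.05). RefSeq annotates both as transcribed pseudogenes. Ifit1, which binds viral RNA, was at 11.91, 11.87, 12.03 and 12.06 at 1 hr and at 15.10, 15.24, 15.23 and 15.45 at 3 hr, giving a change of 3.29 (SE 0.06). Rsad2, the enzyme viperin, rose by 3.19 (SE 0.06).

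Of 13 GBP and IRG GTPases, which act against intracellular microbes, 12 rose and 1 did not pass, with a median change of 2.31. Irgm2 rose by 2.74 (SE 0.04), Iigp1 by 2.69 (SE 0.08), Igtp by 2.66 (SE 0.05) and Gbp4 by 2.55 (SE 0.09). Among 20 IRF, STAT and Rel factors, 13 rose, 3 fell and 4 did not pass. Beside the counts of these lists, 28.5% of all genes tested rose and 32.4% fell, so the 3 that fell were a smaller share. Stat5a (2.32, SE 0.05), Stat2 (2.08, SE 0.05) and Irf7 (1.82, SE 0.06) rose, whereas Irf4 fell by 1.53 (SE 0.11) and Irf1 was at -0.02 (SE 0.05).

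Negative feedback regulators moved both ways, 13 up and 13 down of 28, with a median of 0.02, beside 28.5% up and 32.4% down over all genes tested. Socs1, an inhibitor of JAK kinases, was at 8.45, 8.54, 8.55 and 8.58 at 1 hr and at 12.05, 12.07, 11.93 and 12.30 at 3 hr, giving a rise of 3.56 (SE 0.07). Cish, of the same family, rose by 3.07 (SE 0.08), Il1rn, the IL-1 receptor antagonist, by 1.51 (SE 0.06) and Socs3 by 0.48 (SE 0.05). The MAP kinase phosphatases Dusp5 and Dusp4 fell by 3.04 (SE 0.10) and by 2.76 (SE 0.12), and Dusp1 by 0.82 (SE 0.06). Tnfaip3, the ubiquitin-editing enzyme A20, changed by -0.17 (SE 0.06, limma adjusted p = 0.026), a call that was lost when each library was centred on its median. Il10 rose by 0.45 (SE 0.07), Txnip by 0.52 (SE 0.04) and Hif1a by 0.73 (SE 0.09).

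Among 28 CPEB, TTP and poly(A) tail factors, 15 fell, 2 rose and 11 did not pass, with a median change of -0.20. Zfp36, which encodes TTP, was at 15.88, 15.98, 16.06 and 15.83 at 1 hr and at 14.67, 14.91, 14.73 and 14.78 at 3 hr, giving a fall of 1.17 (SE 0.06). Its paralogs Zfp36l2 and Zfp36l1 fell by 2.48 (SE 0.11) and by 2.45 (SE 0.09). Of the other CPEB genes, Cpeb2 fell by 1.29 (SE 0.09), Cpeb1 by 0.87 (SE 0.12) and Cpeb3 by 0.42 (SE 0.12). Elavl1, which encodes HuR, a protein that stabilizes ARE mRNAs, was among the 2 that rose, by 0.21 (SE 0.04). Among 28 TLR4 signalling components, 13 rose, 6 fell and 9 did not pass, with a median of 0.15. Both lists are read beside 28.5% rising and 32.4% falling over all genes tested. Map3k8 (1.37, SE 0.05) and Tirap (1.21, SE 0.09) rose, Map2k6 fell by 1.42 (SE 0.08), and Tlr4 itself was at -0.08 (SE 0.09).

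The study followed mRNAs by their counts of AREs and CPEs. Of 29 mRNAs with more AREs than CPEs, 19 rose and 7 fell in KO, with a median change of 0.48. Of 61 with more CPEs than AREs, 39 rose and 11 fell, with a median of 0.32, and of 9 with equal numbers 5 rose and 3 fell, with a median of 0.39. Beside these counts, 28.5% of all genes tested rose and 32.4% fell in KO. In WT the class medians were 0.62, 0.41 and 0.51. These classes come from the study's lists of TTP and CPEB4 targets, whose copies may be incomplete, so counts and medians are given with no test of the classes. Over single mice the medians ran from 0.408 to 0.506 in KO and from 0.436 to 0.679 in WT for the first class, from 0.259 to 0.416 and from 0.262 to 0.604 for the second and from 0.302 to 0.457 and from 0.348 to 0.628 for the third, so the genotypes overlapped in each class. The difference between genotypes passed for 0 members. The KO mean change was below the WT mean in 18 of 29, in 45 of 61 and in 7 of 9, beside 51.3% of all genes tested.

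The lists of this paragraph are read beside 28.5% rising and 32.4% falling over all genes tested. In none of them was the falling share above that of all genes. In arginine, nitric oxide and itaconate metabolism 8 of 9 rose and 1 did not pass. Nos2, the inducible nitric oxide synthase, was at 8.22, 8.13, 8.20 and 8.19 at 1 hr and at 12.04, 11.82, 11.94 and 12.10 at 3 hr, giving a rise of 3.79 (SE 0.05). Its untreated level was 8.12 to 8.14. Slc7a2, an arginine transporter, rose by 2.42 (SE 0.10) and Acod1, which makes itaconate, by 1.24 (SE 0.06). Of 12 prostaglandin and leukotriene genes 7 rose and 3 fell, led by Ptges (2.00, SE 0.06) and the receptor Ptger2 (1.63, SE 0.07), with Ptgs2 (COX-2) at 1.44 (SE 0.05). Of 10 costimulation and adhesion genes 8 rose and 2 fell, among them Cd69 (2.08, SE 0.09), Cd274 (1.62, SE 0.08), Cd40 (1.37, SE 0.07) and Cd83 (-1.51, SE 0.05).

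Of 24 chemoattractant and purinergic receptors, 7 rose, near the 28.5% of all genes tested, and 12 fell, beside 32.4%. The cannabinoid receptor Cnr2 fell by 2.78 (SE 0.08) and Gpr183, an oxysterol receptor, by 1.74 (SE 0.05), whereas the adenosine receptor Adora2a rose by 2.54 (SE 0.06) and the formyl peptide receptor Fpr2 by 1.92 (SE 0.08). Of 7 MHC class II genes 1 rose and 1 fell, smaller shares than those of all genes tested. The faller was Ciita, the transactivator of these genes (-0.51, SE 0.11).

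The median changes of the growth and stress lists were smaller in size than those of the antiviral and GTPase lists. The S phase and G2/M lists fell in 13 of 14 members each, with medians of -0.53 and -0.31, led by Cdc6 (-1.88, SE 0.08) and Aurka (-0.72, SE 0.07). Of 20 ribosome biogenesis genes 17 rose and 0 fell, with a median of 0.40 and the largest value for Wdr43 (1.22, SE 0.05). In the unfolded protein and integrated stress response 10 of 17 fell and 3 rose, led by Ppp1r15a (-1.53, SE 0.10). Of 19 survival and death genes 6 rose and 5 fell, shares near those of all genes tested (28.5% rose and 32.4% fell). Among them were Pmaip1, which encodes the death effector NOXA, at -2.54 (SE 0.06) and Mcl1, a survival protein, at -1.17 (SE 0.04).

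The metabolic lists are read beside the 28.5% of all genes tested that rose and the 32.4% that fell. In glycolysis 3 of 18 rose and 1 fell, both smaller shares than these, the largest changes being Pfkfb3 (2.23, SE 0.07) and Hk2 (1.28, SE 0.04). In the tricarboxylic acid cycle 4 of 15 rose, near the share of all genes, and 0 fell. The 15 hypoxia genes split into 6 rising and 6 falling, with Vegfa at -1.73 (SE 0.14) and Adm at 1.00 (SE 0.08). Of 14 NRF2 targets 4 rose and 6 fell, with Slc7a11 at 1.45 (SE 0.13) and Osgin1 at -1.19 (SE 0.07). Cholesterol synthesis had 10 of 19 rising and 2 falling with no member at 1 or more, and cholesterol efflux 3 of 8 rising and 3 falling.

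**Figure D2:**
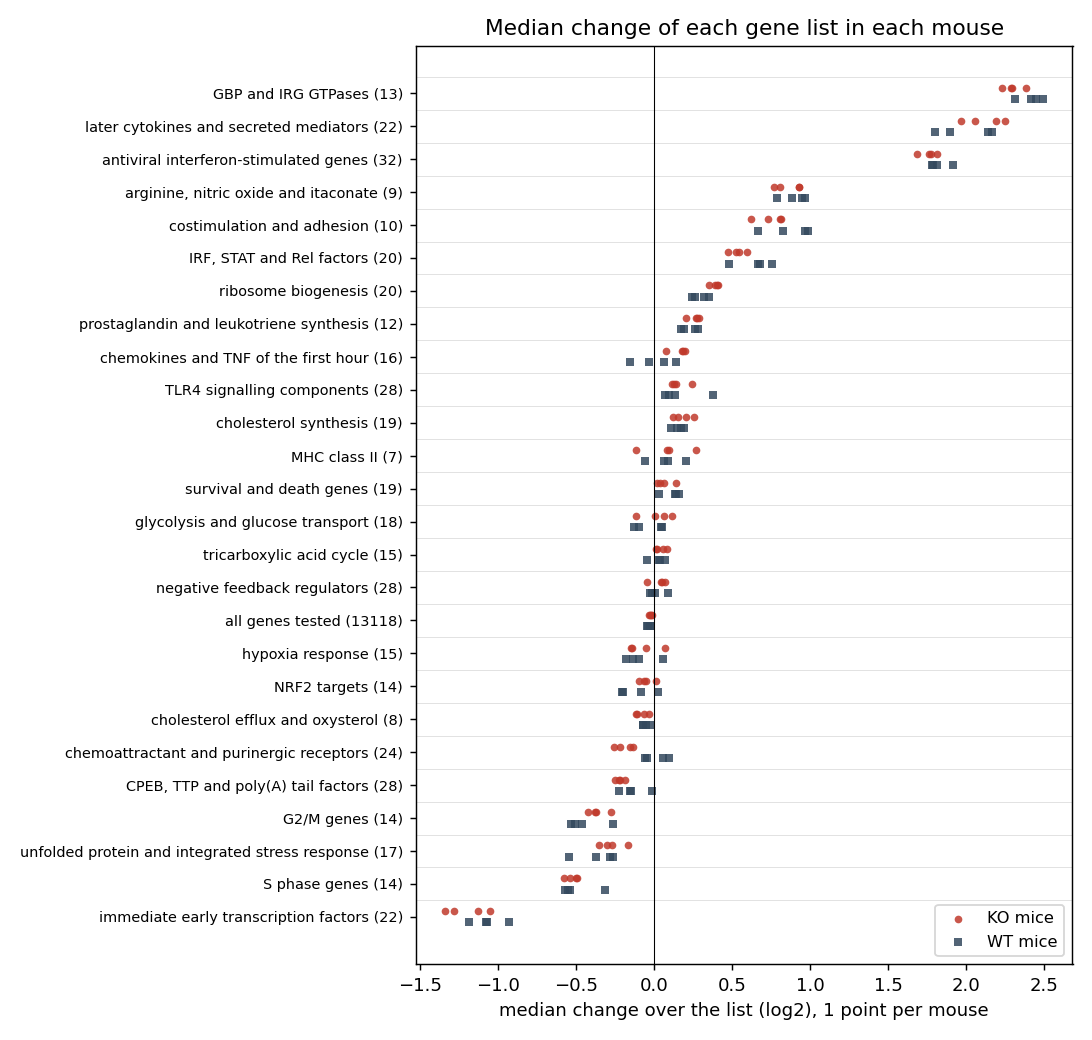
Median change from 1 to 3 hr (log2 scale, x axis) of each gene list in each KO and each WT mouse. Points are mice, and the lists of later cytokines, antiviral genes and GTPases lie highest while immediate early factors lie lowest in both genotypes.

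The same 2 times were compared in WT, where 3717 genes rose (28.3%) and 4346 fell (33.1%). Across the 13118 genes the KO and WT changes had a Pearson r of 0.962, a description, since genes are not independent replicates. Of the 774 genes that rose by at least 1 in KO, 706 did so in WT (91.2% of the KO genes and 82.6% of the 855 WT genes). Of the 676 that fell by at least 1, 519 did so in WT (76.8% and 83.6% of the 621 WT genes). Among genes called in both genotypes, 4 were called in opposite directions, 2810001G20Rik, Rnase6, Ciita and Trp53rka, named after their values were seen.

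**Figure D3:**
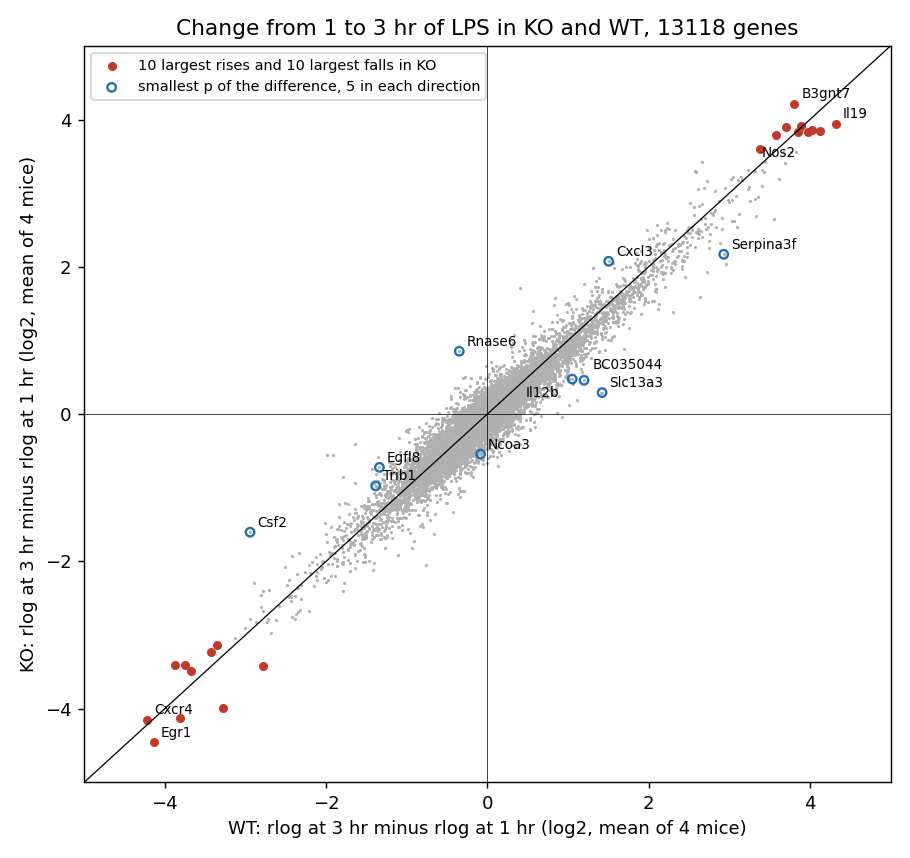
Change from 1 to 3 hr in KO (y axis) against the change in WT (x axis), both on the log2 scale, for the 13118 genes tested, each a point and a mean of 4 mice. Filled points are the 10 largest rises and falls in KO, and circles the 5 smallest p of the difference in each direction. Most points lie along the diagonal, and Rnase6 and Slc13a3, the 2 genes whose difference passed the test, lie off it.

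The difference between the genotypes, the KO change minus the WT change, was tested for each gene in the same fit. It passed for 2 genes (0.0152% of those tested), with a median SE of 0.113, and 1020 genes (7.78%) had an unadjusted p under 0.05. In simulated data of the same design, limma recovered 28 of 67 differences of 0.5, 63 of 67 of 1 and 64 of 66 of 2. The noise was drawn independently for each gene and 200 differences were planted, so recovery in the real libraries may differ. Csf2, with a difference of 1.34, did not pass in them. All 4 KO changes lay above all 4 WT changes for 291 genes (2.22%) and below them for 327 (2.49%). The changes of 2 KO mice correlated across genes at 0.889 to 0.938 and those of 2 WT mice at 0.777 to 0.93, the lower values coming from WT mouse 88 (0.892 to 0.93 without it).

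Rnase6, a secreted antimicrobial ribonuclease (chr14:51123908-51132187, mm10), rose in KO and fell in WT. In KO mice 3, 62, 2 and 55 it was at 8.10, 7.83, 7.80 and 8.14 at 1 hr and at 9.19, 8.61, 8.46 and 9.02 at 3 hr. In WT mice 25, 88, 69 and 87 it was at 8.08, 8.15, 7.98 and 8.27 at 1 hr and at 7.95, 7.68, 7.54 and 7.91 at 3 hr. The genotypes overlapped at 1 hr and did not at 3 hr. The changes were 0.67 to 1.09 in KO and -0.47 to -0.13 in WT, a difference of 1.20 (SE 0.11, limma adjusted p = 0.0073). Within the batches it was 1.24 and 1.17. Without WT mouse 69 the adjusted p was 0.0504, and without the mouse as a block it was 0.118.

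Slc13a3, a sodium-dependent dicarboxylate transporter (chr2:165405295-165473197, mm10), rose in both genotypes, but less in KO. It was at 4.85, 5.27, 5.34 and 5.23 in the KO libraries at 1 hr and at 5.26, 5.57, 5.64 and 5.39 at 3 hr. In WT it was at 6.85, 7.13, 7.47 and 7.02 and at 8.33, 8.43, 9.11 and 8.29. The genotypes did not overlap at any of the times 0, 1 and 3 hr, so the change started from a lower level in KO, where shrinkage is stronger. The changes were 0.16 to 0.41 in KO and 1.27 to 1.64 in WT, a difference of -1.13 (SE 0.12, limma adjusted p = 0.0089). Within the batches it was -1.03 and -1.23. The adjusted p was 0.0577 without KO mouse 62, 0.0504 without WT mouse 69, 0.0776 with the mouse as a random effect and 0.2 without the mouse as a block, where the rise in KO was lost as well (adjusted p = 0.159 with limma).

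**Figure D4:**
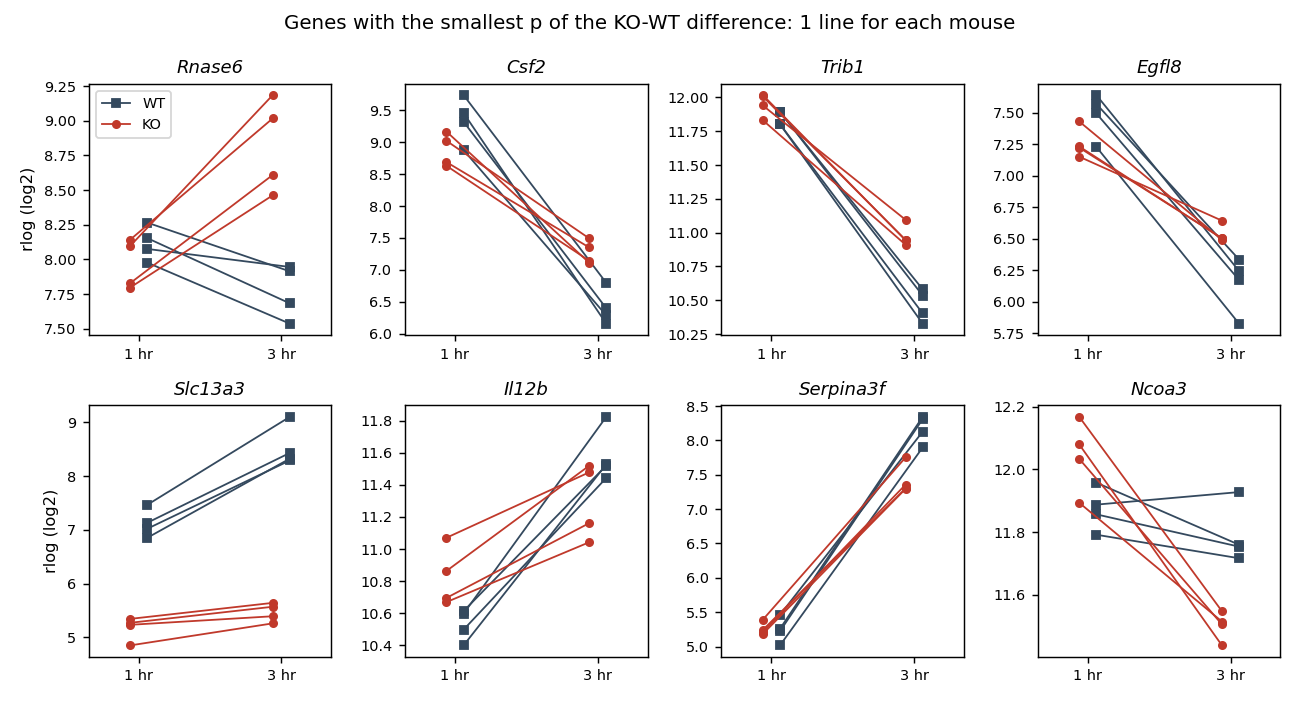
Levels (rlog, log2 scale, y axis) of 8 mRNAs at 1 and 3 hr of LPS (x axis) in each KO mouse (circles) and WT mouse (squares), with lines joining the libraries of a mouse. Rnase6 overlaps between genotypes at 1 hr and not at 3 hr, and Slc13a3 is lower in every KO library.

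The next smallest p-values did not pass and are given as values, each with KO and WT changes that did not overlap. Csf2, which encodes GM-CSF, was at 9.02, 8.63, 9.17 and 8.69 in KO at 1 hr and at 7.49, 7.14, 7.11 and 7.35 at 3 hr. In WT it was at 9.32, 9.46, 8.88 and 9.74 at 1 hr and at 6.40, 6.16, 6.29 and 6.80 at 3 hr. The 3 hr levels were higher in every KO library, and the difference of the changes was 1.34 (SE 0.18, limma adjusted p = 0.055). Without WT mouse 88 the adjusted p was 0.023, and without KO mouse 2 it was 0.0092.

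Cxcl3 rose by 2.08 in KO and by 1.505 in WT, a difference of 0.57 (SE 0.09, limma adjusted p = 0.17). Trib1, a pseudokinase of the feedback list, fell by 0.97 and by 1.39, a difference of 0.41 (SE 0.07, adjusted p = 0.18 with limma). Egfl8, a secreted protein, had a difference of 0.62 (SE 0.11).

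Of those lower in KO, Il12b, which encodes the p40 subunit of IL-12 and IL-23, was at 11.07, 10.67, 10.70 and 10.86 in KO at 1 hr and at 11.48, 11.04, 11.16 and 11.52 at 3 hr. In WT it was at 10.61, 10.60, 10.40 and 10.50 and then at 11.52, 11.82, 11.53 and 11.44. KO was thus the higher genotype at 1 hr and at 3 hr its levels overlapped those of WT, giving a difference of -0.58 (SE 0.09, limma adjusted p = 0.17). Serpina3f, a protease inhibitor, rose by 2.17 in KO and by 2.93 in WT. BC035044 had a difference of -0.74 (SE 0.12). Ncoa3, a nuclear receptor coactivator (chr2:165992637-166073242), fell by 0.54 in KO and stood at -0.08 in WT, a difference of -0.46 (SE 0.08). It lies 519439 bases from Slc13a3 on the same chromosome. In two-sided exact permutation tests of 4 KO against 4 WT changes, all 10 genes reached 0.0286, the smallest p this design allows, and they were chosen by their p.

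The genes of the lists with KO and WT changes that did not overlap are described by counts. In the antiviral list the KO mean change was below the WT mean for 26 of 32 genes and in the GTPase list for 13 of 13, beside 51.3% of all genes tested. All 4 KO changes lay below all 4 WT changes for 5 of 32 and for 5 of 13, beside 2.49% of all genes tested, and above them for 0 of either list, beside 2.22%. Rsad2 rose by 3.19 in KO and by 3.62 in WT, Iigp1 by 2.69 and by 3.33, and Gbp4 by 2.55 and by 3.10. Iigp1 and Gbp4 encode interferon-inducible GTPases. None of these differences passed over all genes tested.

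In the chemokine and TNF list 13 of 16 KO means lay above the WT mean, and the changes did not overlap for 4, all higher in KO (Cxcl3, Il1b, Osm and Tnfsf9), beside 2.22% of all genes tested. Osm fell by 0.75 in KO and by 1.44 in WT, a difference of 0.69 (SE 0.16). Of the receptors, 21 of 24 KO means lay below the WT mean, beside 51.3% of all genes tested, but of the 3 with changes that did not overlap Adora2b and Cnr2 were higher in KO and Cx3cr1 lower. Of the immediate early factors 9 of 22 KO means lay below the WT mean. Those with changes that did not overlap were Jun, Klf4 and Klf6, lower in KO with differences of -0.39, -0.49 and -0.19, and Egr2, higher. As for the receptors, this is beside 2.49% lower and 2.22% higher over all genes tested. Egr1 (-0.32, SE 0.09) and Egr3 (-0.70, SE 0.26) also had KO means below WT, with changes that overlapped. In the hypoxia list the changes did not overlap for 3 of 15 genes higher in KO and 1 lower. In the G2/M list this held for 3 of 14 and in the feedback list for 3 of 28, all higher. Ccne1, a cyclin of S phase entry, fell by 1.04 in KO and by 0.31 in WT. Ciita, at -0.51 in KO and 0.27 in WT, had a difference of -0.77. The changes overlapped between genotypes for Il6, Zfp36, Socs1, Socs3, Dusp1 and Hif1a, with a difference of -0.26 for Socs1 (SE 0.10), -0.13 for Il6, 0.11 for Zfp36, -0.04 for Socs3, -0.04 for Dusp1 and 0.00 for Hif1a (SE 0.13). For Txnip they did not, at 0.52 in KO and 0.70 in WT.

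The targeted gene was examined in every library. Cpeb4 (chr11:31870104-31935635, mm10) was at 9.35, 9.41, 8.22 and 9.07 in KO mice 3, 62, 2 and 55 at 1 hr and at 9.47, 9.02, 9.15 and 9.18 at 3 hr. In WT mice 25, 88, 69 and 87 it was at 9.35, 8.08, 9.46 and 7.68 at 1 hr and at 9.26, 10.88, 10.06 and 8.82 at 3 hr. The genotypes overlapped at both times, so Cpeb4 does not check the labels here. The part of the transcript that the counted reads cover relative to the deletion was not analysed here. The change was 0.19 in KO (SE 0.36, limma adjusted p = 0.67) and the difference from WT -0.92 (SE 0.51, adjusted p = 0.68 with limma). Siglece was at 5.486 to 6.267 in the 8 KO libraries and at 7.445 to 8.404 in the 8 WT libraries, and Slc13a3, BC064078 and Gm6334 also separated all 16 libraries by label. Rps15a-ps8, at 2.827 to 3.439 in KO and 3.083 to 7.973 in WT, and Plekha7, at 2.879 to 4.399 and 3.275 to 7.26, did not. WT mouse 87 was at 3.615 and 3.083 for Rps15a-ps8, and its 3 hr library lay within the KO range. For Plekha7 this mouse was at 4.15 and 3.275, both within the KO range, and the other WT libraries were at 5.755 to 7.26. These 6 genes were chosen after their values were seen and do not show which label is KO.

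Libraries of a group differed along an axis that ran with mRNA length. For each library, deviations from the mean of the 16 libraries were taken. Their median over 1744 mRNAs of at most 1500 bases was subtracted from that over 1703 of at least 6000 bases. The result was -0.0782 to 0.34 in KO at 1 hr and 0.0566 to 0.204 at 3 hr. In WT it was -0.594 to 0.0269 and -0.342 to 0.265. From 1 to 3 hr it changed most in WT mouse 88, by 0.689, where Cpeb4 changed by 2.80, and in KO mouse 62 it changed by -0.258, where Cpeb4 changed by -0.396. In KO mice 3 and 55 the signs were opposite, at -0.136 and -0.0805 beside 0.121 and 0.119 for Cpeb4. In the other mice the signs were the same. Over the 16 libraries Cpeb4 and the measure had a Pearson r of 0.715, a description, since libraries of a mouse are not independent. This measure, chosen after the values were seen, was used as a covariate in a fit with no term for the mouse. The libraries of a mouse counted as independent there. Cpeb4 differed between KO and WT by -0.917 at 1 hr (SE 0.086, limma adjusted p = 7.1e-06) and by -1.14 at 3 hr (SE 0.072, adjusted p = 2e-08 with limma). This fit called 281 of 13118 genes at 1 hr and 1798 at 3 hr. Without the covariate the KO minus WT difference of Cpeb4 was 0.371 (SE 0.43) and -0.55 (SE 0.43), and 1877 and 703 genes were called. What gave the libraries this axis was not tested.

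**Figure D5:**
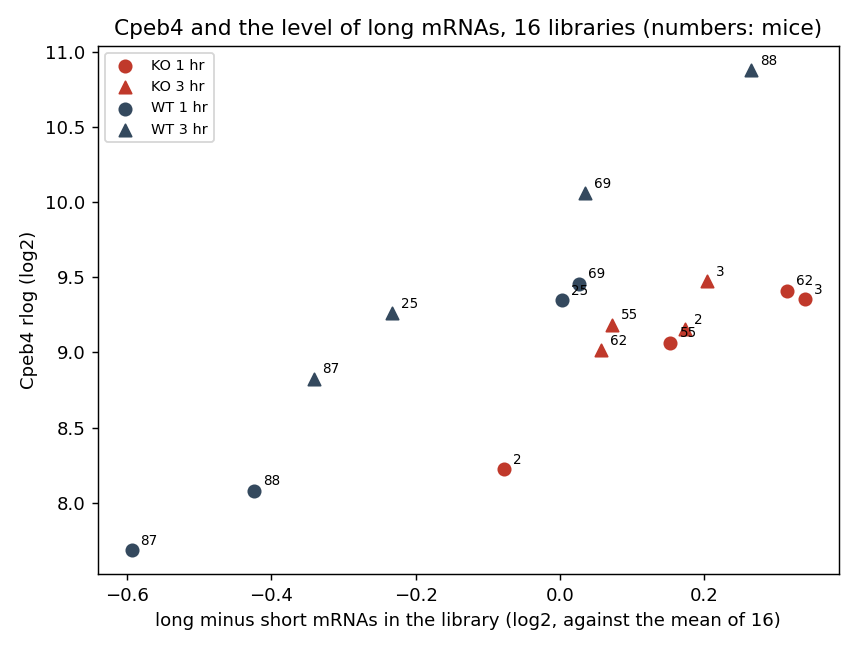
Cpeb4 level (rlog, log2 scale, y axis) against the level of long minus short mRNAs (log2 scale, x axis) in the 16 libraries at 1 and 3 hr, KO and WT. Each point is a library, and Cpeb4 lies between 8.225 and 9.475 in KO and between 7.684 and 10.88 in WT.

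In the fit with a term for each mouse, the same covariate moved the difference between genotypes. It called 109 genes higher in KO (0.831%) and 143 lower (1.09%). Of these 252, 249 had the same sign without it, in a fit of the same values. Without it 205 of them had an unadjusted limma p under 0.05. The called genes included 6 of 32 antiviral genes, all lower (Ifit1, Ifit2, Ifit3, Rsad2, Cmpk2 and Ifih1), 3 of 13 GTPases, all lower (Gbp3, Gbp4 and Iigp1), and 5 of 16 genes of the chemokine and TNF list, all higher (Cxcl1, Cxcl3, Il1b, Osm and Tnfsf9). Of 28 CPEB, TTP and poly(A) tail factors 2 were called, both higher (Cpeb2 and Zfp36l1). Some other lists were called in both directions. Of 22 immediate early factors 3 were higher (Egr2, Nr4a1 and Ier5) and 3 lower (Jun, Klf4 and Klf6), of 22 later cytokines 2 were higher (Csf2 and Ccl22) and 2 lower (Il12b and Cxcl9), and of 28 feedback regulators 4 were higher (Bcl3, Zfp36l1, Dusp16 and Trib1) and Socs1 was lower, at -0.34 (limma adjusted p = 0.0153). Of 15 hypoxia genes 3 were higher, Adm, which encodes a vasodilator, Slc2a1, a glucose transporter, and Ddit4, an inhibitor of mTOR signalling. The measure had means of 0.182 and 0.127 in KO and of -0.247 and -0.0689 in WT at 1 and 3 hr, so its part and that of the genotype cannot be fully told apart. A first form of the covariate, against the mean of each group, called 2512 genes and was then replaced. In a fit of all 40 libraries with the mouse as a block, 32 genes were higher (0.244%) and 46 lower (0.351%), among them Csf2, Osm, Bcl3 and Trib1 higher and Jun, Klf4, Cxcl9, Iigp1, Ciita and Ccne1 lower.

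The macrophage identity of the cells was checked on markers. All 10 macrophage markers passed the filter, and the log2 of their summed linear levels was 18.89 to 19.16 in KO and 19.3 to 19.54 in WT. The sums for neutrophil, B cell, NK, mast cell, erythroid and fibroblast markers were at most 7.538. Ly6g, Mpo, Ncr1, Cpa3 and Col1a1 were under the filter. Other markers passed it, 5 of 9 for neutrophils, 1 of 5 for B cells, 1 of 5 for mast cells and 1 of 4 for erythroid cells. So did 3 of 5 dendritic cell, 2 of 6 T cell, 2 of 4 endothelial and 3 of 4 megakaryocyte markers. All 4 NK markers were under the filter, and their sum was 3.199 to 3.825 in KO and 1.978 to 2.571 in WT. The dendritic cell sum in KO went from between 6.136 and 6.459 at 1 hr to between 6.958 and 7.275 at 3 hr, with Flt3 and Siglech under the filter, and in WT from between 6.245 and 7.013 to between 7.111 and 7.324. In KO the T cell sum was 7.43 to 7.456 at 1 hr and 8.083 to 8.454 at 3 hr. In WT it was 7.42 to 7.608 and 8.265 to 8.833. Its markers Cd3d, Cd3e and Cd3g were under the filter. The endothelial sum in KO was 8.415 to 8.476 at 1 hr and 10.03 to 10.11 at 3 hr, with Tek and Tie1 under the filter. In WT it was lower at both times, at 7.861 to 8.097 and 8.873 to 9.576. The megakaryocyte sum at 1 hr was 11.79 to 12.55 in KO and 12.58 to 12.95 in WT, without overlap. At 3 hr it was 12.29 to 12.75 and 12.41 to 13.01, with Gp9 under the filter. The part of other cells in the results was not tested. In bulk libraries, fewer cells of a type and less RNA per cell cannot be told apart.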

How the data were processed

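Poly(A) RNA was sequenced from BMDMs of 4 WT and 4 Cpeb4-/- mice at 5 times, in 40 libraries. Per the submitters' processing notes, the authors aligned reads with STAR 2.3.0e to mm10 and counted them per gene with featureCounts. The deposited values are log2 values, made by the authors with the rlog transformation of DESeq2, which corrects for library size and shrinks weakly expressed genes. Depth per library is unknown and the count tests of the study could not be run on such values. Of the value columns, 0 were left unused.

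Computed here were the changes from 1 to 3 hr, with limma 3.58.1 in R 4.3.3 (lmFit, eBayes with trend) over 16 libraries and genes with a mean of at least log2 of 5. The model had a term for each mouse and 1 for the time in each genotype, and the difference was the contrast of these. p-values were adjusted over 13118 genes by the Benjamini-Hochberg method. Single genes had in addition a two-sided exact permutation test of the 4 KO and 4 WT changes. Simulated data tested the fit: it recovered 92 of 134 changes of 0.5 in KO, 130 of 134 of 1 and 132 of 132 of 2. The simulated noise was independent for each gene.

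Libraries with the same number come from the same mouse, as the labels state. The correlation of their deviations from the group means at 1 and 3 hr was 0.35, 0.10, 0.06 and 0.26 in KO mice 3, 62, 2 and 55 and -0.16, -0.19, 0.47 and 0.66 in WT mice 25, 88, 69 and 87. The 24 pairs of replicate libraries correlated at 0.9918 to 0.9979, and 0 were identical.

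The gene lists, the members and the comparison were chosen with earlier results of these data known. Genes were named by rule. For KO these were the 10 largest rises and falls among called genes with 1 direction in all mice. For the difference they were called genes with changes that did not overlap, filled up to 5 in each direction by p. Up to 4 members of largest change were taken from each of 25 lists, with 14 mRNAs the study follows, and other members are named after their values were seen. Promoters are those of RefSeq on GRCm38.p6, and gene locations are those of mm10. Alternatives were other filters, eBayes settings, normalizations, blocks and thresholds, leaving out each mouse, and those added after the data were seen, which the closing section names.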

Additional observations from a re-analysis of the deposited data

Results flagged for a closer look

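Values of single mice that stood apart from the other 3 of their genotype by Dixon's ratio at the critical value for 4 samples were found in 10 of 312 groups tested (3.21%), where chance gives about 1 in 20. In KO these were the changes of Tmem88 in mouse 2 (-3.87, others -3.07 to -2.965), Slc7a2 in mouse 62 (2.01, others 2.52 to 2.59), H2-DMa in mouse 2 (-0.476), Pfkfb3 in mouse 2 (2.40, others 2.155 to 2.184), Pfkp in mouse 55 (0.823) and Eif2ak3 in mouse 55 (-1.04). In WT they were Steap4 in mouse 25 (4.16), Sucla2 in mouse 88 (0.0361), Trib3 in mouse 69 (-0.883) and the median of the S phase list in mouse 88 (-0.317, others -0.571 to -0.539).

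Rnase6 (difference 1.20) and Slc13a3 (difference -1.13) differed between KO and WT by the test of the difference itself, with limma adjusted p-values of 0.0073 and 0.0089.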

How the results depend on the processing

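The 7984 genes changed in KO and the 8063 in WT stayed within 1.5 times of these counts under every alternative run, from 6445 (adjusted p under 0.01) to 9855 in KO. The 1450 genes changed by at least 1 in KO became 3460 at a smallest change of 0.58 and 262 at 2. Centring each library on its median moved the share of rises among KO calls from 46.8% to 53.2%.

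The 2 differences between KO and WT were the most dependent on the fit. They became 8 with no filter on low values, 0 without the replicate block (828 at an unadjusted p under 0.05), 6 with the block as a random effect, of which 1 (Rnase6) was among the 2, and 78 with all 40 libraries in the paired fit. Leaving out 1 mouse gave 0 (without WT mouse 69) to 4 (without KO mouse 2), with 1 without KO mouse 62, and leaving out WT mice 25 and 88 together gave 1. KO and WT counts without the block were 7732 and 7829.

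3 alternatives were added after the data were seen: leaving out those 2 mice, and 2 forms of the level of long against short mRNAs as a covariate. The form tried first took each library against the mean of its own group and gave 2512 differences (1038 higher and 1474 lower in KO). This form removes spread within groups but leaves each group's own offset in the effect, and it was replaced, after that count was seen, by the level against the mean of the 16 libraries, which gave 252. Neither count is independent of having looked at the results.

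Direction turned for values near 0. Changes in KO under quantile normalization were -0.02607 for H2-Ab1, -0.06212 for Cd74, -0.02441 for Cs and -0.02808 for Mdh2, of which H2-Ab1, Cs and Mdh2 had been called as rises. Without 1 mouse, the change in KO ran from -0.05192 to 0.3897 for Cpeb4 and from -0.138 to 0.006409 for Ccl2 (turned without KO mouse 2). Differences turned to 0.01386 for Socs3 and 0.04136 for Dusp1 with the covariate, and to -0.01704 (median centring) and -0.00186 (covariate within groups) for Hif1a. Without 1 mouse they ran from -0.0921 to 0.003976 for Socs3, from -0.09525 to 0.02604 for Dusp1, from -0.1192 to 0.04809 for Ccl2 and from -0.08883 to 0.1325 for Hif1a. The cause was not tested. Depth limits are unknown, since the table holds no counts.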
